A study of Mus musculus with 6 samples.

Results

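The annexins are a family of proteins that bind acidic phospholipids when calcium rises, and the data described here are the annexin transcripts of the mouse tracheal epithelium before and after injury. All probe sets annotated to exactly 1 of the symbols Anxa1, Anxa2, Anxa3, Anxa4, Anxa5, Anxa6, Anxa7, Anxa8, Anxa9 and Anxa11 were taken. This gave 20 of the 34945 probe sets with 1 gene symbol that were used, and they cover 9 of the 10 genes. Anxa11 has no value here, because its only probe set is annotated to several symbols.

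Tracheal epithelium of adult C57Bl/6 male mice was hybridized to Affymetrix mouse expression arrays, in 3 control samples and 3 samples collected 48 h after injury (48 hpi). Injured mice had inhaled 500 ppm SO2 for 4 h, an exposure that strips luminal cells and leaves basal cells to rebuild the layer, whereas control mice were not exposed. Each sample was a pool of 4 tracheas, peeled with Dispase, dissociated with trypsin and depleted of CD45+ leukocytes in both groups, so p-values measure the spread between pools. The comparison asks which annexin transcripts differ between resting epithelium and epithelium under repair.

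Each annexin pairs a conserved calcium- and lipid-binding core with its own N-terminal tail, which binds partners such as S100 proteins. Annexins are best known for collecting at damaged plasma membrane, where they help to close the tear, and for roles in vesicle traffic and in the control of inflammation. In airway and other lining epithelia several members are abundant, and Anxa1, Anxa2 and Anxa8 are typical of basal and stratified layers.

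The windows that precede the start sites of the 3 member genes that rose, and of the related gene Anxa10, which is not a member, are shown because these genes moved the same way. The sequences are from RefSeq on GRCm38.p6, each of 250 bases that end at the base before the annotated start, on the strand of the gene. Capitals mark matches to the AP-1 site TGANTCA, the TATA box TATAAA and the TEAD site CATTCC on either strand.
Anxa1, chr19:20390672-20390921, minus strand: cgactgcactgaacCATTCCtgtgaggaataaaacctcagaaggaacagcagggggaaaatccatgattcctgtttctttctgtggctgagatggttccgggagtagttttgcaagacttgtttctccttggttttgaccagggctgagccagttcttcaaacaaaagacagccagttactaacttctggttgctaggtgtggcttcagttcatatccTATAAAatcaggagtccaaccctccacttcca
Anxa2, chr9:69453433-69453682, plus strand: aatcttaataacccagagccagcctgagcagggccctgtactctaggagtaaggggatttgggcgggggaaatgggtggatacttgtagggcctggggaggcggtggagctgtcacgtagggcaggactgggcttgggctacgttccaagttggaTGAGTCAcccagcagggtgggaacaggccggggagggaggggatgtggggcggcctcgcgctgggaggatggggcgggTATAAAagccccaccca
Anxa8, chr14:34085729-34085978, plus strand: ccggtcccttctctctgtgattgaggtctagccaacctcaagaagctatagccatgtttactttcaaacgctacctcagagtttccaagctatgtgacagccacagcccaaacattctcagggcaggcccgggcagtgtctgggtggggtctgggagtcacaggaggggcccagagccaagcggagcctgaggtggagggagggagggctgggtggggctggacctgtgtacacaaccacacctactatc
Anxa10, chr8:62123194-62123443, minus strand: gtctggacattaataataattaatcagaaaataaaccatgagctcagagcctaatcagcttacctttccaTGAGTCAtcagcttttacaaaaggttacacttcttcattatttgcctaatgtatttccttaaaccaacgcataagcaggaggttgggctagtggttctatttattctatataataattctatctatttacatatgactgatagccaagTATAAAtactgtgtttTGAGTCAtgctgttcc

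The Anxa1 window holds a TATA box that begins 32 bases before the start and a TEAD site 236 bases before it. The Anxa2 window holds an AP-1 site at 95 bases and a TATA box at 17 bases before the start. In the Anxa8 window none of these letters occurs, nor does the STAT site TTCNNNGAA. The Anxa10 window has AP-1 sites at 180 and 16 bases and a TATA box at 32 bases before the start. No 2 of the motifs overlapped in these windows. Over all 32851 RefSeq promoter windows of this length, 6.75% hold the AP-1 site, 12.4% the TATA box, 12.6% the TEAD site and 7.02% the STAT site. Among the 8 members with a window (11 windows in all), the AP-1 site occurs in 1 gene, the TATA box in 2, the TEAD site in 1 and the STAT site in 0. These are matches of letters, and binding was not measured. Anxa3 and Anxa6 have no entry among the promoter sequences.

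Values are log2 expression after robust multi-chip analysis (RMA), and a change is the 48 hpi mean minus the control mean, with its standard error (SE). Each of 18193 genes was read from its brightest probe set, control and 48 hpi arrays were compared with limma, and a gene was called when its p, after Benjamini-Hochberg adjustment for all genes, was below 0.05. A level counts as above background when the group mean exceeds the 95th percentile of a set of 79 probe sets whose genes encode olfactory, vomeronasal or trace amine receptors, which was 4.94 in control and 4.81 at 48 hpi. By this measure 8 of the 9 measured annexins were above background in both groups, and Anxa9 was above it in neither. Among the arrays, 48 hpi replicate 3 stood apart. Its Pearson correlations over the 34945 probe sets were 0.9901 and 0.9915 to its group, against 0.996 between the other two. Control replicate 1 differed less, at 0.9931 and 0.993 to its group, against 0.9959 between control replicates 2 and 3.

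Anxa1, Anxa2 and Anxa8 were higher at 48 hpi, by 1.33- to 1.60-fold, and no member was called lower. The other 6 measured members did not pass the test, and at an unadjusted p below 0.05 Anxa5 would be added, on the lower side. Among all genes tested 36.9% were called, 19.4% higher and 17.5% lower, and among the genes above background 27.6% were called higher. A count of 3 of 9 genes is too small to set the family apart from these shares. The median change of the 9 annexins was 0.08, with a range from -0.32 to 0.68, beside -0.02 for all genes.

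**Figure D1:**
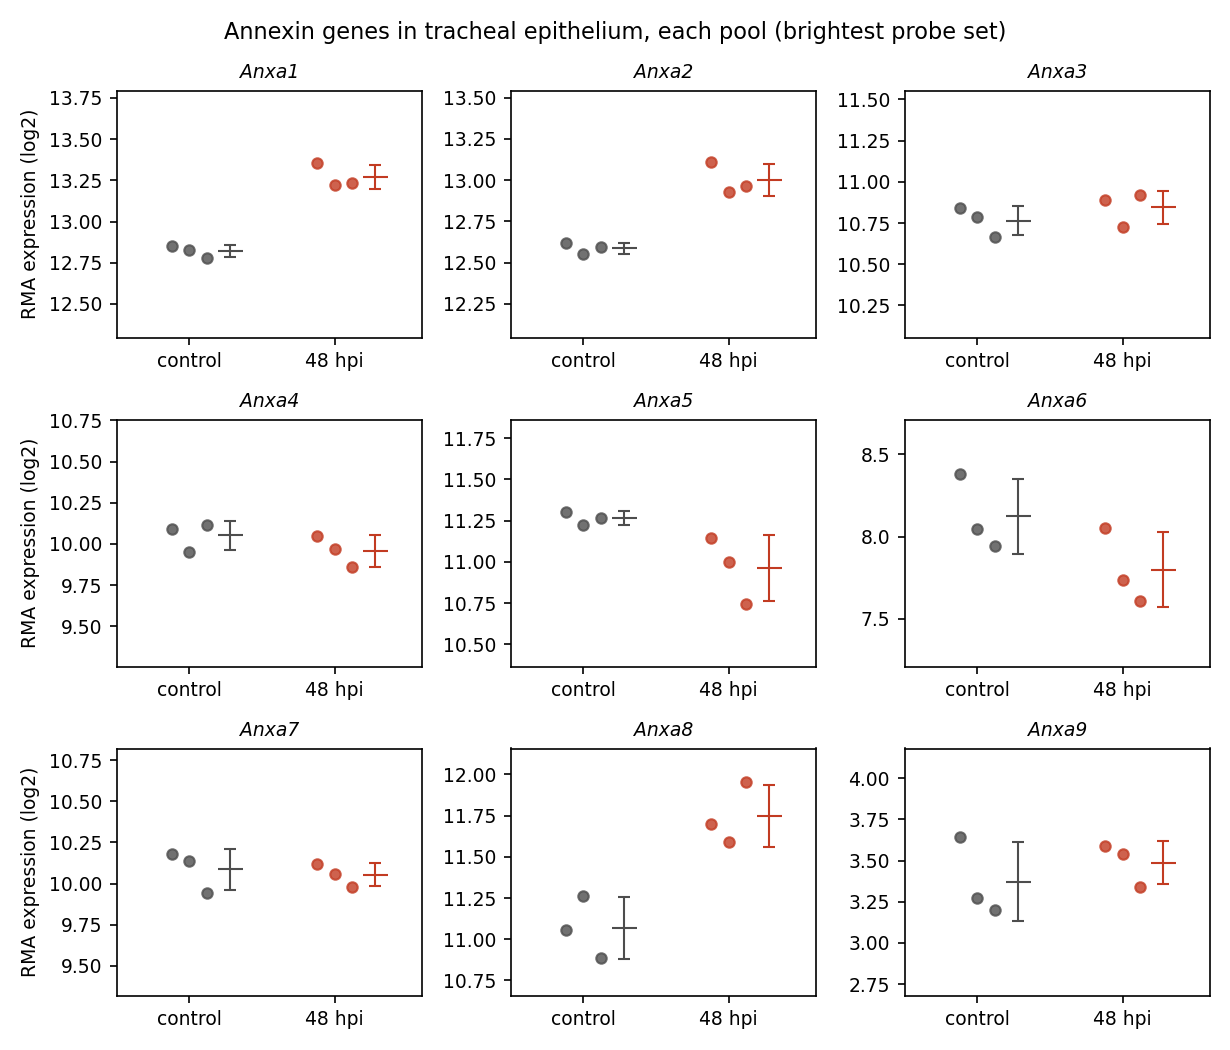
Log2 RMA expression (y axis) of each measured annexin in the 3 control pools (grey points) and the 3 pools at 48 hpi (red points), with mean ± SD beside them. Every panel spans the same range of log2 units around its own gene, so changes can be compared between panels but levels of different genes cannot. The pools separate upward for Anxa1, Anxa2 and Anxa8 and downward for Anxa5, and they overlap for the rest.

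Anxa1, a glucocorticoid-induced protein that limits inflammation by way of formyl peptide receptors, measured 12.85, 12.83 and 12.78 in the control pools and 13.35, 13.22 and 13.23 at 48 hpi. All 3 injured pools lay above all 3 control pools. The means were 12.82 ± 0.036 (SD, n = 3) and 13.27 ± 0.073 (SD, n = 3), and the log2 change of 0.45 (SE 0.084, limma adjusted p = 0.00373) is a 1.37-fold rise with a 95% confidence interval of 1.20 to 1.56. A second, dimmer Anxa1 probe set (1444016_at) read 7.58, 7.75 and 7.78 in control and 7.83, 7.53 and 7.90 at 48 hpi. Its groups overlapped, and it did not pass the test, with a log2 change of 0.05 (SE 0.12, limma adjusted p = 0.785 over all probe sets). The mean of both probe sets still rose, but by 0.25 on the log2 scale (limma adjusted p = 0.0488).

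Anxa2, which forms a tetramer with S100a10 and binds plasminogen and its activator at the cell surface, measured 12.62, 12.55 and 12.59 in control and 13.11, 12.93 and 12.96 at 48 hpi. Again the groups did not overlap, and every injured pool was higher. The log2 change was 0.41 (SE 0.087, limma adjusted p = 0.00681), a 1.33-fold rise with a 95% confidence interval of 1.16 to 1.53, from means of 12.59 ± 0.034 and 13.00 ± 0.095 (SD, n = 3 each). Its 2 dimmer probe sets changed by 0.13 and 0.22 on the log2 scale, neither past the test, and the dimmest of them was not above background in either group. With all 3 Anxa2 probe sets averaged the rise was 0.25 on the log2 scale (limma adjusted p = 0.0278).

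Anxa8, known from skin and other stratified epithelia, showed the largest rise of the measured members. Its pools measured 11.06, 11.26 and 10.89 in control and 11.70, 11.59 and 11.95 at 48 hpi, without overlap. From means of 11.07 ± 0.19 and 11.75 ± 0.19 (SD, n = 3 each), the log2 change was 0.68 (SE 0.13, limma adjusted p = 0.00475), a 1.60-fold rise with a 95% confidence interval of 1.30 to 1.98. A second Anxa8 probe set (1425789_s_at), of a kind that can match related transcripts too, read 9.70, 9.84 and 9.50 in control and 10.55, 10.11 and 10.25 at 48 hpi. It rose by nearly the same amount, 0.62 on the log2 scale (SE 0.14, limma adjusted p = 0.00897 over all probe sets), also without overlap. Under the methods' t-test this second probe set missed the threshold (adjusted p = 0.0688).

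Anxa5, the annexin used to label phosphatidylserine on dying cells, had no overlap between groups yet missed the threshold. It measured 11.304, 11.224 and 11.269 in control and 11.142, 10.997 and 10.747 at 48 hpi, so every injured pool was below every control pool and the injured pools were the more scattered. The log2 change was -0.30 (SE 0.11, 95% confidence interval -0.56 to -0.04, limma adjusted p = 0.0686). Without 48 hpi replicate 1 the change was -0.39 and passed (limma adjusted p = 0.0333), and without 48 hpi replicate 3 it was -0.20 and did not (limma adjusted p = 0.150). It did not pass without any 1 of the other 4 arrays either (limma adjusted p = 0.120 to 0.151). Over all genes, pools of the groups did not overlap in 50.4% (25.4% higher and 25.1% lower at 48 hpi), and among the annexins they did not overlap in 3 genes on the higher side and 1 on the lower. For any of these genes taken alone, an exact permutation test of 3 pools against 3 gives a two-sided p of 0.1, the smallest it can give.

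The remaining members above background were not called on their brightest probe set. Anxa3, a phospholipase inhibitor abundant in granulocytes and epithelia, had means of 10.76 and 10.84, a log2 change of 0.08 with a 95% confidence interval of -0.14 to 0.30. Anxa4, a protein of apical epithelial membranes, had means of 10.05 and 9.96, a change of -0.09 with an interval of -0.31 to 0.12. Anxa7, which promotes membrane fusion, had means of 10.09 and 10.05, a change of -0.03 with an interval of -0.26 to 0.19. These intervals leave room for changes of up to about 0.31 on the log2 scale in size.

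Anxa6, a larger annexin that carries the core in duplicate, measured 8.38, 8.04 and 7.95 in control and 8.05, 7.73 and 7.61 at 48 hpi on its brightest probe set. The groups overlapped, and the log2 change of -0.32 (SE 0.15) had a 95% confidence interval of -0.67 to 0.02 (limma adjusted p = 0.136). Anxa9, an unusual member whose calcium-binding sites are altered, stayed within background, at 3.37 ± 0.24 in control and 3.49 ± 0.13 at 48 hpi (SD, n = 3 each).

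When all 20 annexin probe sets were considered, 4 were called higher, 4 lower and 12 neither, where 32.9% of all probe sets were called, 17.7% higher and 15.2% lower. The median change was 0.07 over the annexin probe sets and -0.01 over all. Probe sets of the groups did not overlap in 7 cases on the higher side and 5 on the lower, where over all probe sets 24.1% did not overlap on the higher side and 22.9% on the lower. All 4 that fell belong to Anxa6 and Anxa7, and none of them is the brightest of its gene. The pattern within a gene was therefore examined by limma on the difference between each further probe set and the brightest one, a test chosen after seeing the data. Of 16752 such differences over all genes, 28% passed, so disagreement within a gene was common on these arrays.

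**Figure D2:**
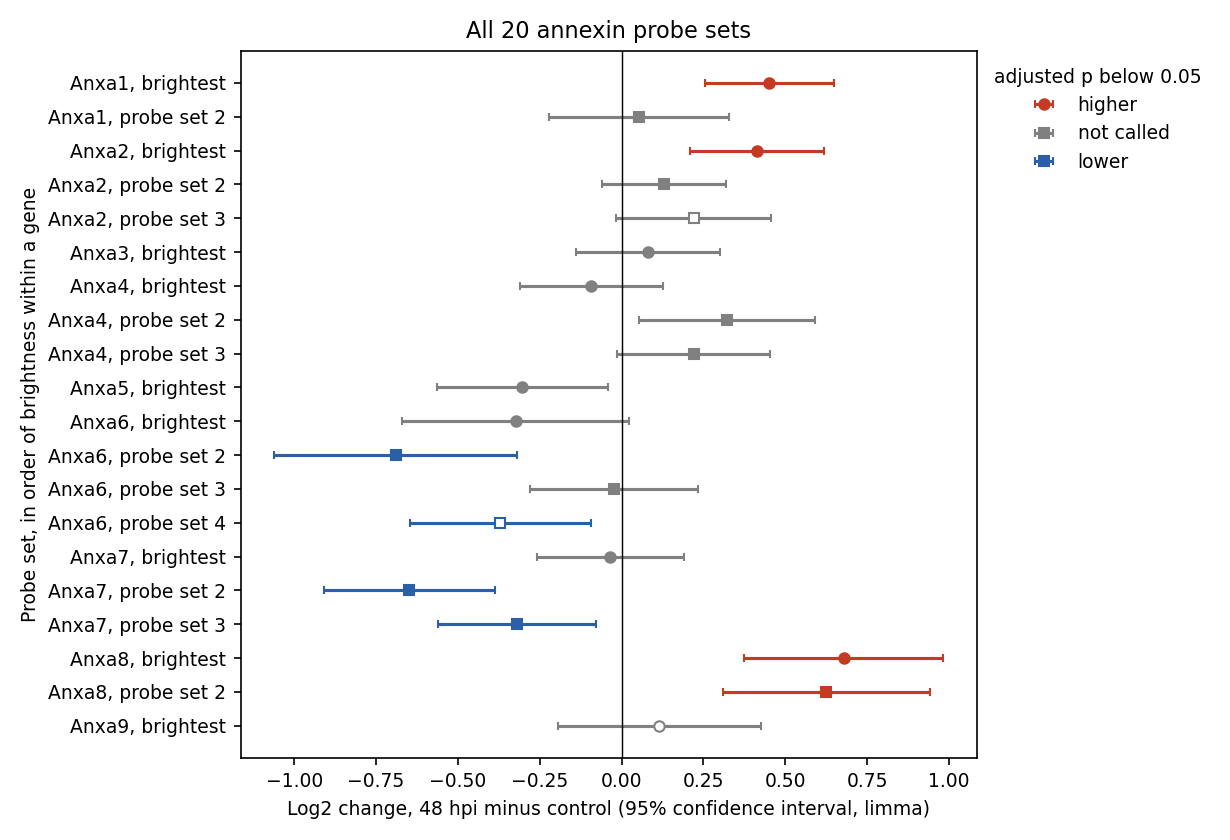
Log2 change (x axis, 48 hpi minus control) of all 20 annexin probe sets with 95% confidence intervals from limma. Circles are the brightest probe set of a gene, squares the others, and open symbols are not above background in either group. Red marks 4 probe sets called higher and blue 4 called lower, the latter all dimmer probe sets of Anxa6 and Anxa7.

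For Anxa7, the second probe set (1438764_at) read 8.02, 7.62 and 7.80 in control and 7.14, 7.22 and 7.14 at 48 hpi. The injured pools were all lower, by 0.65 on the log2 scale in the mean (change -0.65, SE 0.11, limma adjusted p = 0.00305), or 1.57-fold. Its change differed from that of the brightest Anxa7 probe set by -0.61 (SE 0.13, limma adjusted p = 0.00951). The third Anxa7 probe set (1416137_at) read 7.45, 7.70 and 7.49 in control and 7.33, 7.24 and 7.12 at 48 hpi, a change of -0.32 (SE 0.11, limma adjusted p = 0.0477). This call was lost without any 1 of control replicates 2 and 3 and 48 hpi replicates 1, 2 and 3 (limma adjusted p = 0.0553 to 0.163 for Anxa7 1416137_at). These pools did not overlap either, but the difference from the brightest probe set was not called (-0.28, SE 0.12, limma adjusted p = 0.111). With all 3 averaged, Anxa7 was called lower, at -0.33 on the log2 scale (limma adjusted p = 0.0109).

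For Anxa6, the second probe set (1429246_a_at) read 6.42, 6.25 and 6.29 in control and 6.01, 5.54 and 5.35 at 48 hpi. It fell 1.61-fold without overlap (log2 change -0.69, SE 0.16, limma adjusted p = 0.0118). The difference from the brightest Anxa6 probe set, -0.37 (SE 0.12), was not called (limma adjusted p = 0.0553). Of the other two, one (1442288_at) changed by -0.02 and the other (1429247_at), called lower at -0.37 (SE 0.12, limma adjusted p = 0.0458), was within background in both groups. The call of Anxa6 1429247_at was lost without any 1 of the arrays other than 48 hpi replicate 3 (limma adjusted p = 0.0599 to 0.152). With all 4 averaged, Anxa6 was called lower, at -0.35 on the log2 scale (limma adjusted p = 0.0182).

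Anxa4 went the other way. Its second probe set (1424176_a_at) read 7.80, 7.58 and 7.54 in control and 8.15, 7.86 and 7.88 at 48 hpi, higher in every injured pool, but the change of 0.32 (SE 0.12) was not called (limma adjusted p = 0.068). The third (1457658_x_at) read 6.95, 6.80 and 6.96 in control and 7.25, 7.13 and 6.99 at 48 hpi, a change of 0.22 (SE 0.10, limma adjusted p = 0.139), again without overlap. The second, Anxa4 1424176_a_at, was called higher under 5 of 16 alternatives, with adjusted p over the 16 from 0.0201 to 0.260 and one of the 5 being without control replicate 1 (change 0.40, limma adjusted p = 0.0436). Both differed from the brightest Anxa4 probe set, by 0.41 (SE 0.12, limma adjusted p = 0.0341) and by 0.31 (SE 0.10, limma adjusted p = 0.0466). For Anxa8 the difference between probe sets was -0.05 (SE 0.15, 95% confidence interval -0.39 to 0.28), and for Anxa1 it was -0.40 (SE 0.13) and was not called (limma adjusted p = 0.0553). Where on the transcripts these probe sets lie was not determined.

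The levels rest on RMA, which sets the arrays to one distribution of signal, and 3 other scalings were compared. Scaling to equal signal of the 18 hybridization control probe sets moved the median change of all genes from -0.02 to 0.32 on the log2 scale. Under it Anxa1, Anxa2 and Anxa8 changed by 0.79, 0.76 and 1.02, and all 3 stayed called. Every measured annexin had the same SE there, 0.23, so calls of genes under this scaling do not measure each gene's own spread between pools. The directions of Anxa4, Anxa5, Anxa6 and Anxa7 flipped to positive values of 0.25, 0.040, 0.020 and 0.31, none of them called. Relative to the shifted median, Anxa5 stood at -0.28 and Anxa6 at -0.30, whereas Anxa1, Anxa2 and Anxa8 stood at 0.47, 0.43 and 0.70. None of the annexin probe sets was called lower under this scaling. The share of calls that were higher, over all genes, was 52.5% as deposited and 84% under it, and 45.5% after repeated quantile normalization. The differences between probe sets of a gene are taken within an array and do not depend on a shift.

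**Figure D3:**
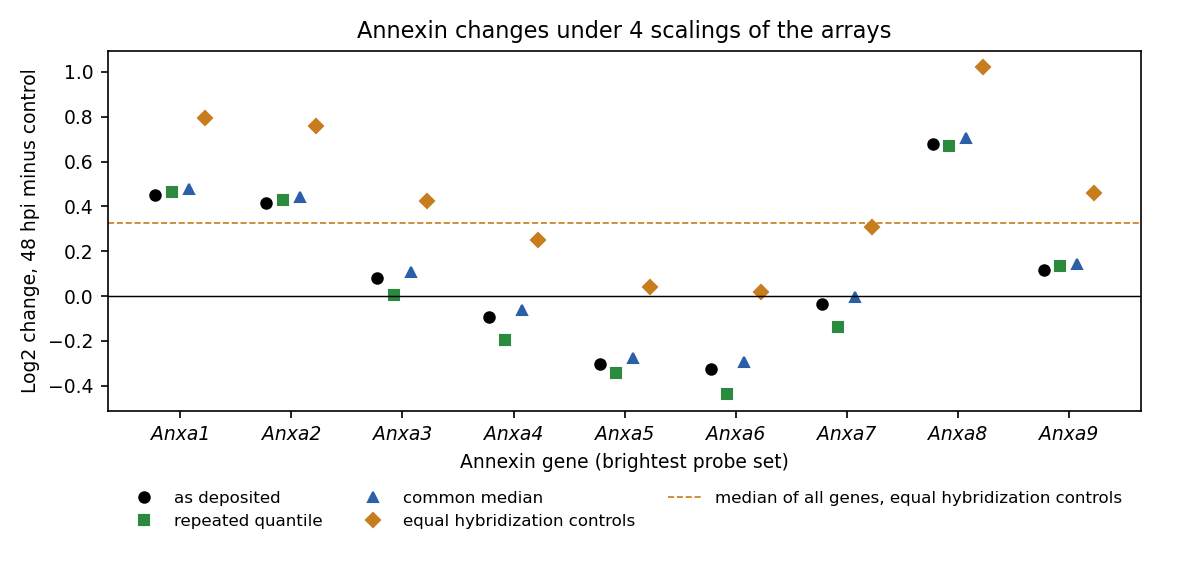
Log2 change (y axis, 48 hpi minus control) of each measured annexin on its brightest probe set under 4 scalings of the arrays. The dashed line is the median change of all genes, 0.32, after scaling to equal hybridization controls. Anxa1, Anxa2 and Anxa8 lie above 0 under each scaling and above the dashed line, and Anxa5 and Anxa6 lie below 0 under 3 scalings and just above it under the fourth.

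In bulk RNA, fewer cells of a type and less RNA per cell cannot be told apart, and the summed signals of several cell type marker lists differed between the groups along with the annexins. The labelled tissue bore its markers, since Krt5, Trp63, Scgb1a1 and Foxj1 were above background in both groups. Of 10 basal cell markers 3 were called higher and 2 lower, and their summed linear signal was 17500 to 18500 in control and 21500 to 24100 at 48 hpi. Changes in this list ran from -0.66 (Ngfr) to 3.18 (Krt14) on the log2 scale, with a median of 0.03. Krt5 rose by 0.69 and was called, whereas Trp63 changed by -0.34 and was not called. Of 10 secretory cell markers 0 were higher and 8 lower, with sums of 136000 on the control arrays and 53800 to 95400 at 48 hpi. Of 9 ciliated cell markers 0 were higher and 7 lower, with sums of 809 to 1710 and 436 to 1040. Their part in the annexin changes was not tested.

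Anxa1 and Anxa3 are also abundant in myeloid cells, and Anxa2, Anxa5 and Anxa6 in stromal cells. Of 12 leukocyte and macrophage markers 1 was called higher and 3 lower, and their sum, in control most of it Lyz2, went from 14500 to 17500 in control to 1900 to 7360 at 48 hpi. The marker called higher, Coro1a, was within background in both groups (3.72 and 4.07). Ptprc, which encodes CD45, was within background in both groups (3.04 ± 0.11 and 2.83 ± 0.024, SD, n = 3 each). None of 6 neutrophil markers, 5 platelet markers or 6 endothelial markers was called, with summed signals of 135 to 168 against 136 to 149, 205 to 250 against 208 to 234, and 83 to 102 against 82.9 to 89.1. Of 7 fibroblast markers 1 was lower, with sums of 1170 to 1670 and 317 to 769. That gene, Dcn, made up most of the control sum and changed by -1.85 on the log2 scale, whereas the other 6 were not called and had positive changes, and the median of the list was 0.30. Those 6 were all within background in control, and of the 7 markers only 3, Dcn among them, were above it at 48 hpi. Of 9 cartilage and smooth muscle markers 2 were lower, with sums of 3040 to 4130 and 431 to 1010, and most of the control sum was Chad, which changed by -2.68. The other lower gene, Myh11, was within background in both groups. The part of these genes in the annexin values was not tested. Without 48 hpi replicate 3, Anxa1, Anxa2 and Anxa8 changed by 0.47, 0.43 and 0.57 and stayed called (limma adjusted p = 0.00625, 0.0111 and 0.0108).

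A relative of the members changed far more. Anxa10, an annexin known from gastric epithelium, read 4.21, 5.01 and 4.95 in control, a mean within background, and 8.34, 9.09 and 8.07 at 48 hpi. The pools did not come near each other. The log2 change of 3.78 (SE 0.29, limma adjusted p = 7.07e-05) starts from a control level within background, so its size has no firm scale. The mean at 48 hpi was 11.8-fold above the control background level. A second Anxa10 probe set also rose, by 2.49 on the log2 scale (SE 0.30, limma adjusted p = 0.000528). Anxa13, an annexin of intestine and kidney, was within background in both groups, and its call (log2 change -0.73, SE 0.25, limma adjusted p = 0.0484) was lost when the 34945 probe sets were tested together (limma adjusted p = 0.0503).

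Genes set beside the annexins were read from lists of 73 genes. The lists cover calcium-binding partners, membrane repair, the plasminogen system, formyl peptide receptors and the epithelial wound edge. Of the 73 genes 65 were measured, with 23 called higher and 12 lower, where 19.4% of all genes were called higher and 17.5% lower. The wound-edge list alone, described further below, gave 9 of the higher calls and 1 of the lower. The median change of the 65 genes was 0.14, beside -0.02 for all genes. Among 9 measured calcium-binding partners, 4 were higher and 2 lower (median change 0.14). S100a10, the partner of Anxa2, measured 11.42, 11.27 and 11.29 in control and 12.16, 12.23 and 12.35 at 48 hpi. Every injured pool was higher, and the change of 0.92 (SE 0.092, limma adjusted p = 0.000228) is a 1.89-fold rise, on a probe set of a kind that can match other transcripts too. A second S100a10 probe set rose by 1.23 (limma adjusted p = 0.000613), while the dimmest one changed by -0.38 and was not called. S100a4, which binds Anxa2 as well, read 8.69, 8.42 and 8.28 in control and 9.43, 9.46 and 9.51 at 48 hpi, a rise of 1.00 (SE 0.11, limma adjusted p = 0.000426). S100a1 fell by 1.39 on the log2 scale (SE 0.20, limma adjusted p = 0.00107). Gca, a calcium-binding protein of the penta-EF-hand family, fell by 0.85 (SE 0.16, limma adjusted p = 0.00406) on a probe set that can match related transcripts too. With such probe sets left out Gca changed by -0.36 (limma adjusted p = 0.0283), on a probe set within background in both groups (4.18 and 3.81). The call of the brightest Gca probe set was lost with the methods' t-test (adjusted p = 0.0508) and with equal hybridization controls (limma adjusted p = 0.0827). S100a6, a partner of several annexins, changed by 0.14 and was not called.

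**Figure D4:**
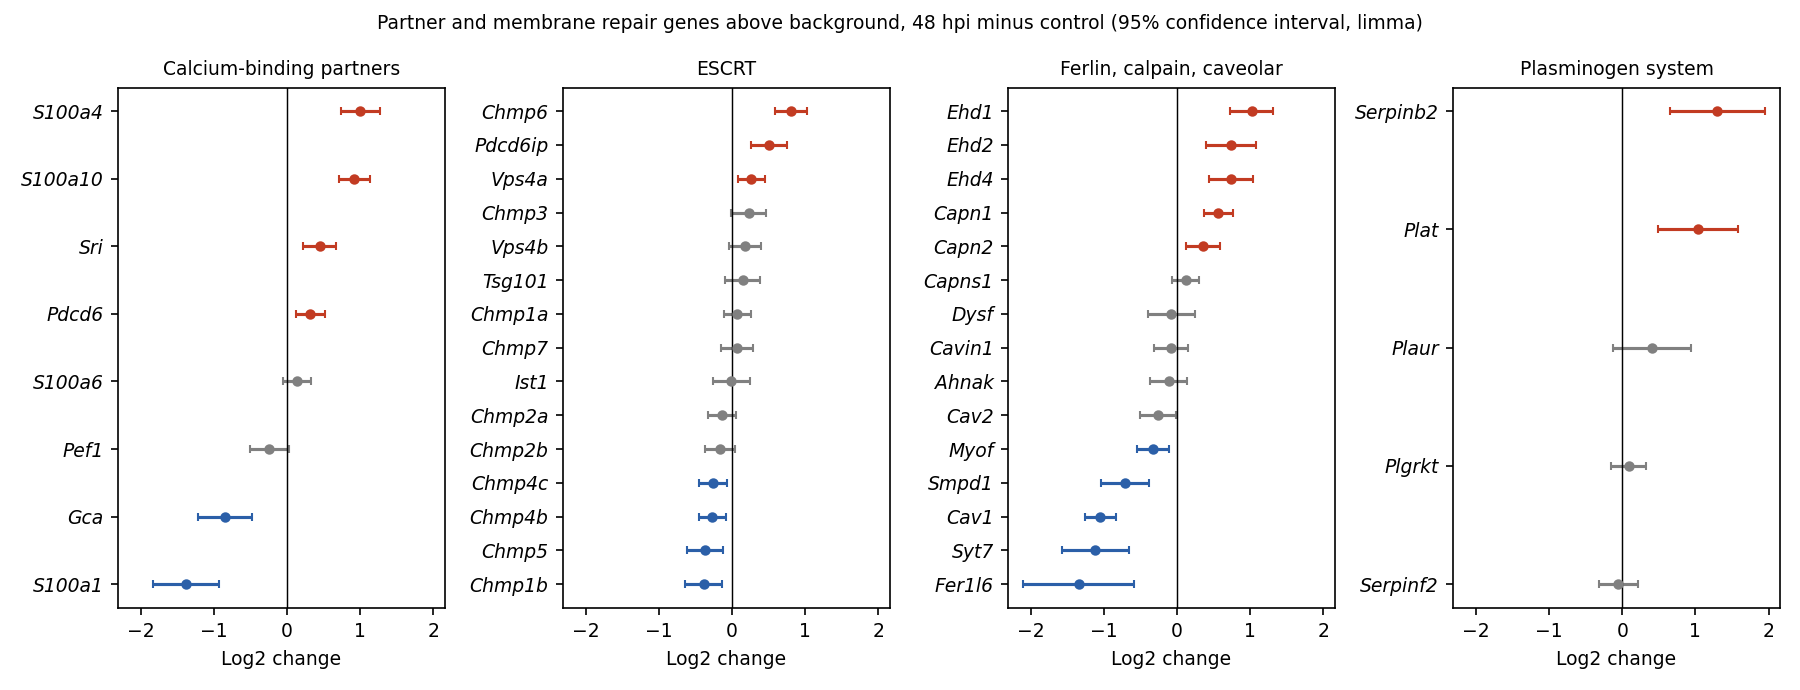
Log2 change (x axis, 48 hpi minus control) with 95% confidence intervals from limma for the measured genes above background of 4 lists: calcium-binding partners, ESCRT, the ferlin, calpain and caveolar group, and the plasminogen system. Red points were called higher, blue lower and grey neither. S100a10, S100a4, Ehd1 and Plat lie near 1 and Serpinb2 above them, and Cav1, Syt7, S100a1 and Fer1l6 lie below -1.

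The plasminogen system, which Anxa2 with S100a10 gathers at the cell surface, had 7 measured genes, of which 2 were called higher and 0 lower (median change 0.18), where 19.4% of all genes were higher. Under the methods' t-test 0 of them were called. Plasminogen itself (Plg) and urokinase (Plau) were within background in both groups, which left 5 of the 7 above it. Plat, tissue plasminogen activator, rose by 1.04 on the log2 scale (SE 0.24, limma adjusted p = 0.00991). Serpinb2, an inhibitor of urokinase, rose by 1.30 (SE 0.28, limma adjusted p = 0.00775). Their adjusted p by the methods' t-test were 0.0881 for Plat and 0.0813 for Serpinb2, and with the mean of its probe sets Plat changed by 0.49 and was not called (limma adjusted p = 0.0751). The Anxa1 receptor Fpr2 was within background in both groups, at 4.49 ± 0.13 and 4.61 ± 0.049 (SD, n = 3 each), and its change of 0.12 was not called.

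Among membrane repair genes, 3 of 15 ESCRT genes, which pinch off damaged membrane, were higher and 4 lower, with a median change of 0.07. Over all genes 19.4% were called higher and 17.5% lower, and among the genes above background, as all 15 were, 27.6% and 23.4%. Counts of 3 and 4 of 15 genes are too small to set the list apart from these shares. Chmp6 rose by 0.81 (SE 0.094, limma adjusted p = 0.000462), whereas Chmp1b changed by -0.39 (limma adjusted p = 0.0227) and Chmp5 by -0.37 (limma adjusted p = 0.0259). A second Chmp1b probe set, above background, changed by 0.14 and was not called. With the mean of probe sets neither gene was called, at -0.13 for Chmp1b (limma adjusted p = 0.399) and -0.26 for Chmp5 (limma adjusted p = 0.0915). Of the 4 lower ESCRT calls 0 were left without control replicate 2 or 3, 1 without control replicate 1 or 48 hpi replicate 3, and 2 without 48 hpi replicate 1 or 2. Pdcd6ip, which recruits ESCRT proteins, was called higher on its brightest probe set at 0.51, but of its other 4 probe sets 2 were called higher and 2 lower, by -0.76 and -1.13, so its direction is uncertain. Of 16 measured genes of the ferlin, calpain and caveolar group 5 were higher and 5 lower, with a median change of -0.08. Ehd1, an ATPase that shapes membranes, rose by 1.02 (SE 0.13, limma adjusted p = 0.000674), and the calcium-activated protease Capn1 rose by 0.56 (SE 0.084, limma adjusted p = 0.00137). Cav1, the main coat protein of caveolae, fell by 1.05 on the log2 scale (SE 0.092, limma adjusted p = 0.000125), and Syt7, a calcium sensor for lysosome exocytosis, fell by 1.12 (SE 0.20, limma adjusted p = 0.00312). The largest fall of this group was that of the ferlin Fer1l6, with a change of -1.35 (SE 0.33, limma adjusted p = 0.0131).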

How the data were processed

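Epithelium of 3 control and 3 injured pools was compared. The authors normalized the arrays by RMA in Partek 6.5 (the submitters' notes also name Affymetrix Expression Console 1.1), and the values they deposited are log2 expression, from 2.01 to 14.6, without detection calls. The methods' two-way analysis of variance also takes mesenchymal arrays, which were not analysed here, and was not run.

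Of 45101 probe sets, 64 are controls, 34958 have 1 symbol in the array annotation, 932 several and 9211 none. Of the 34945 used, 34741 matched RefSeq genes of GRCm38.p6 by Entrez ID and 0 changed symbol. The brightest probe set by mean over the 6 arrays stood for each gene. The test was limma (version 3.58.1, R 4.3.3; lmFit, then eBayes, no block), with Benjamini-Hochberg adjustment for all genes or all probe sets. The test was checked on simulated data. Figures used matplotlib (3.10.9) under Python (3.11.15).

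The members and lists were chosen with earlier results of these data known. Named genes are all members, Anxa10 and Anxa13, every called gene of lists of 8 or fewer measured genes, the 4 called genes of longer lists with the smallest p, and the 3 genes most like the member with the largest rise. Trp63, Krt5, Scgb1a1, Foxj1, Ptprc and Lyz2 are named as defining markers. S100a6, Fpr2, Plg, Plau, Dcn, Chad, Myh11, Fer1l6, Coro1a, Ngfr and Krt14 were named after their values were seen. Alternatives were a mean-variance trend, robust estimates, the methods' t-test, other scalings, leaving out dim probe sets, averaging or restricting the probe sets of a gene, a replicate block, array weights, leaving out each array and a threshold of 0.01. The test of differences between probe sets of a gene was added after seeing the data. The 3 arrays per group limit the precision. Of the listed genes, 8 of 73 had no probe set of their own symbol and were not analysed here.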

Additional observations from a re-analysis of the deposited data

How the results depend on the processing

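Anxa1, Anxa2 and Anxa8 were called higher under each of the 19 alternatives, with log2 changes of 0.25 to 0.79, 0.25 to 0.76 and 0.57 to 1.02. The count of members called lower, 0 as reported, was 1 with a mean-variance trend (Anxa5), 1 after repeated quantile normalization (Anxa5), 2 with the mean of all probe sets (Anxa6 and Anxa7) and 0 to 1 when single arrays were left out (Anxa5 without 48 hpi replicate 1). Of the annexin probe sets, 4 higher and 4 lower as reported, 2 and 1 were called by the methods' t-test. Those higher numbered 5 at a common median, at equal hybridization controls and with the replicate block, 6 with array weights and 4 to 5 when single arrays were left out (5 without control replicate 1). Those lower numbered 2 at a common median, 0 at equal hybridization controls, 1 at a threshold of 0.01 and 2 to 3 when single arrays were left out (2 without 48 hpi replicate 2 and without either of control replicates 2 and 3). Lower calls in the lists, 12 as reported, fell to 7 with the t-test, 4 at equal hybridization controls, 5 with the mean of probe sets, 6 at 0.01 and 7 to 10 when single arrays were left out (7 without control replicate 2, 8 without control replicate 3 or 48 hpi replicate 3). The cause was not tested.

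Only values of uncalled annexins reversed, except those of Pdcd6ip and 1 Anxa7 probe set. Equal hybridization controls turned Anxa4 to 0.25, Anxa5 to 0.040, Anxa6 to 0.020, Anxa7 to 0.31, probe set Anxa6 1442288_at to 0.32 and probe set Anxa7 1416137_at to 0.025. The mean of probe sets turned Anxa4 to 0.15 and Pdcd6ip to -0.076, and without the x and s probe sets Pdcd6ip was -1.13. Probe set Anxa6 1442288_at was 0.00889 after quantile normalization and 0.00517 at a common median. Probe set Anxa1 1444016_at was -0.074 after quantile normalization and -0.046 with array weights. With single arrays left out Anxa7 ranged from -0.11 to 0.011, 1442288_at from -0.11 to 0.044 and 1444016_at from -0.022 to 0.16.

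The labels do not say whether the replicate numbers pair the pools, and the arrays did not settle it. Deviations of same-numbered pools correlated weakly, at 0.1, 0.219 and 0.036. Each control pool correlated best with the 48 hpi pool of its number, but 48 hpi replicate 3 correlated best with control replicate 1 (0.051). With the replicate number as a block 3 members were called higher and 1 lower (Anxa6, -0.32, limma adjusted p = 0.0303). With 3 arrays a group and no detection calls, dim probe sets such as those of Anxa9 and Anxa13 hold little information.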

Other observations

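Genes of the epithelial wound edge, a setting in which Anxa1, Anxa2 and Anxa8 are also known, rose at 48 hpi in 9 of 17 measured cases, and 1 fell, where 19.4% of all genes were called higher and 17.5% lower. The median change of the 17 was 1.05 on the log2 scale, beside -0.02 for all genes. The other 7 of the 17 were not called. The list was chosen with earlier results of these data known, so these counts are descriptive only. Sprr1a, a cornified envelope precursor, rose by 3.52 (SE 0.32, limma adjusted p = 0.000151). Krt6a, a keratin of activated epithelium, rose by 2.77 (SE 0.32, limma adjusted p = 0.000411). Tnc, a matrix protein of healing tissue, rose by 2.02 (SE 0.20, limma adjusted p = 0.000207), and Lama3, a laminin chain of the basal lamina, by 1.05 (SE 0.13, limma adjusted p = 0.000559). Control replicate 1 was the highest control pool for Sprr1a (9.039, against 7.883 and 7.935), Krt6a (9.44, against 8.37 and 8.21) and Tnc, but not for Lama3.

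The genes whose profile over the 6 arrays lay nearest to that of Anxa8, among 12271 other genes above background and after centering each on its control mean, were Tmtc3, Mkks and Ptgfrn. Their root mean square differences from Anxa8 were 0.052, 0.059 and 0.066 on the log2 scale, and their own changes were 0.70, 0.70 and 0.68. Changes near that of Anxa8 follow from this way of choosing the genes, and shared regulation was not tested.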
